A study of Mus musculus with 19 samples.

Results

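Gene expression in the prefrontal cortex of 3xTgAD/Polb+/- mice was set against that of wild type mice at 20 months of age. The arrays were chosen by their titles, which put 4 of 19 arrays in the 3xTgAD/Polb+/- genotype and 5 in wild type. All 11072 genes detected in the series are described.

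Polb encodes DNA polymerase beta, which fills the short gap left when base excision repair cuts out a damaged base. Neurons no longer divide and have a high oxygen use, so that their DNA depends on this pathway through life. The 3xTgAD line is a model of Alzheimer disease in which amyloid plaques and tau tangles form with age.

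The 3xTgAD/Polb+/- mice came from crossing 3xTgAD mice, whose alleles include APPswe, PS1M146V and tauP301L, to mice with 1 intact Polb allele. In the 3xTgAD line the APPswe and tauP301L transgenes are driven by the neuronal Thy1 promoter, so that they act mostly in neurons. The wild type mice carried none of these alleles, and the labels gave every mouse as a C57BL/6 female. The 10 other arrays, of 3xTgAD (n = 6) and Polb+/- (n = 4) mice of the same age, entered the fit for its estimate of spread. The labels do not say whether the arrays of a genotype came from separate litters, so p-values measure the spread between these samples. In a piece of cortex, fewer cells of a type and less RNA per cell cannot be told apart.

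The arrays differed in ways that the genotype labels do not give. The source label writes the age as "20- month" for 3xTgAD/Polb+/- replicates 1 and 2 and wild type replicates 3 to 5, and as "20 month" for 3xTgAD/Polb+/- replicates 3 and 4 and wild type replicates 1 and 2. What the spelling stands for is not given, and it is used here as a block. Replicates 2 and 5 of 3xTgAD share a sample code in the header of the deposited table, so that they may be 1 mouse. Detected probes numbered 13654 ± 342.5 on the 3xTgAD/Polb+/- arrays (SD, n = 4) and 13939.6 ± 526.3 on the wild type arrays (SD, n = 5), an exact two-sided permutation p of 0.357 over 126 splits that leave the spelling aside. Within "20- month" both 3xTgAD/Polb+/- arrays (13879 and 13993) lay below all 3 wild type arrays (14379, 14332 and 14220), and within "20 month" the groups overlapped (13489 and 13255, against 13562 and 13205). Relative to the wild type mean of the same spelling, 194, 646, 291 and 156 genes lay over 1 log2 unit away on 3xTgAD/Polb+/- replicates 1 to 4, against 120, 120, 78, 55 and 27 on wild type replicates 1 to 5. On 3xTgAD/Polb+/- replicate 2, 555 of the 646 lay lower. 3xTgAD/Polb+/- replicate 3 had a mean of 8.81 log2 units over 11 genes of hippocampus, thalamus and olfactory bulb, where the 3 other 3xTgAD/Polb+/- arrays had 7.75 to 7.97 and wild type arrays 7.81 to 8.04.

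The wild type arrays did not form a single group. All 10 arrays of the 2 transgenic genotypes lay more than 1 log2 unit from all 4 Polb+/- arrays in 4 of the 11072 genes, and in those 4 the wild type arrays divided by spelling. Gm3696 had levels of 7.53, 8.02, 8.12 and 8.19 log2 units on the 3xTgAD/Polb+/- arrays, against 8.75, 8.72, 4.69, 4.66 and 4.65 on wild type replicates 1 to 5. It lay at 7.34 to 8.72 on the 3xTgAD arrays and at 4.55 to 4.68 on the Polb+/- arrays, and it was detected on 2 of 5 wild type arrays. Tmem87a, H2-Bl (a class I gene of the major histocompatibility complex) and Gm5796 divided in the same way. Tmem87a had levels of 5.53 to 6.17 on the 3xTgAD/Polb+/- arrays, against 6.08 and 5.30 on wild type replicates 1 and 2 and 8.16 to 8.96 on wild type replicates 3 to 5. Wild type replicates 1 and 2 were thus nearer to the transgenic arrays in 4 of 4 genes, and wild type replicates 3, 4 and 5 nearer to the Polb+/- arrays in 4 of 4. These genes were chosen after their values were seen. Their part in the results that follow was not tested, and values within each spelling and without wild type replicates 1 and 2 are given for the count of genes, for 10 genes past the threshold and for the lists and genes where they are named.

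**Figure D1:**
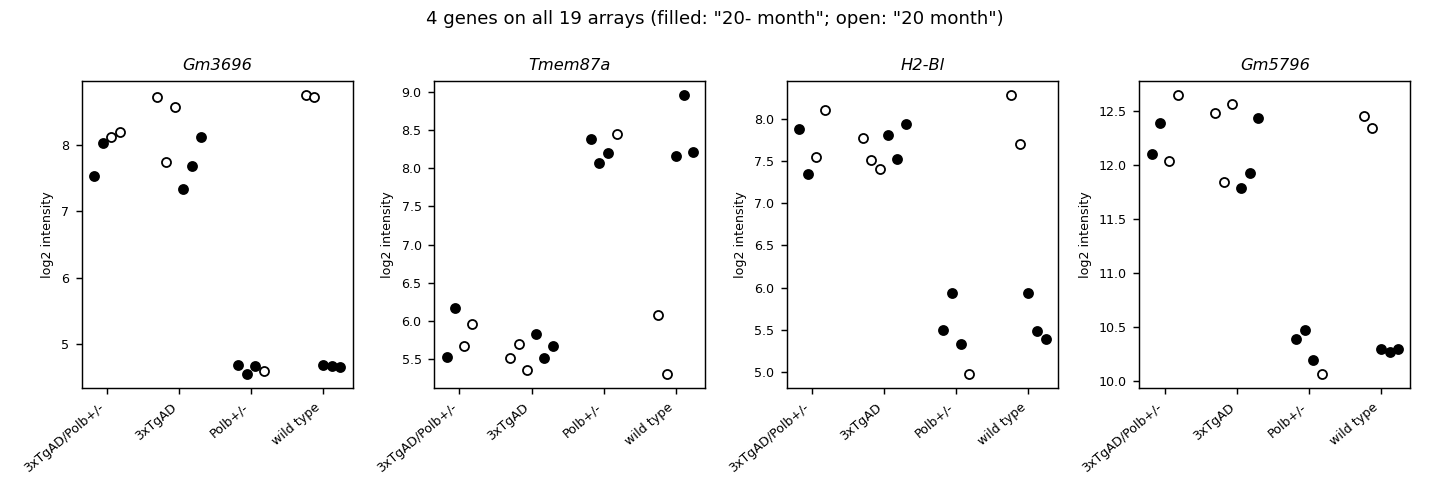
Log2 intensity of 4 genes on all 19 arrays, by genotype, with "20- month" arrays filled and "20 month" arrays open. The open wild type points, replicates 1 and 2, lie with the 3xTgAD/Polb+/- and 3xTgAD arrays, and the filled ones, replicates 3 to 5, lie with the Polb+/- arrays.

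Between 3xTgAD/Polb+/- and wild type cortex, 34 of 11072 genes passed an adjusted p of 0.05 in limma with the spelling as a block, which is 0.307% of the genes. Of these, 21 fell (0.19% of all genes) and 13 rose (0.117%). Fold changes were moderate: the smallest was 1.31-fold, and the largest were 2.61-fold lower and 2.84-fold higher. At an unadjusted p under 0.05, 1144 genes were lower (10.3%) and 1081 higher (9.76%). The 4 arrays of 3xTgAD/Polb+/- did not overlap the 5 of wild type in 29 of the 34 genes, where 135 of all genes (1.22%) lay lower without overlap and 165 (1.49%) higher. All 34 had the same direction within each spelling, fitted separately, where 53.8% of all genes had the same sign in both. The 34 were picked by a fit over both spellings, so that their values within each spelling are no independent check. Within "20- month" arrays 31 of the 34 passed, where 8.55% of all genes passed as lower and 5.55% as higher. Within "20 month" arrays 0 of the 34 passed, where 7 of all genes did (0.0632%).

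The count of genes past the threshold moved with single arrays. It was 33 without 3xTgAD/Polb+/- replicate 1, 2 without replicate 2, 960 without replicate 3 and 210 without replicate 4. Of these, 18, 1, 34 and 34 were among the 34. The count was 16, 1, 16, 2 and 2 without wild type replicates 1 to 5 in turn, with 14, 1, 12, 2 and 2 among the 34. Without both wild type replicates 1 and 2 it was 50, with 12 among the 34, and without the spelling block it was 2. With the replicate number as a block beside the spelling 0 genes passed, and with 3xTgAD replicates 2 and 5 averaged 15 did. Ccnd2 passed without any 1 array, with an adjusted p of at most 0.0295. Each of the 33 others lost its call without at least 1 array, and none of the 34 turned its direction without any of the 9. With median scaling in place of quantile normalization 3 genes passed, all lower.

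**Figure D2:**
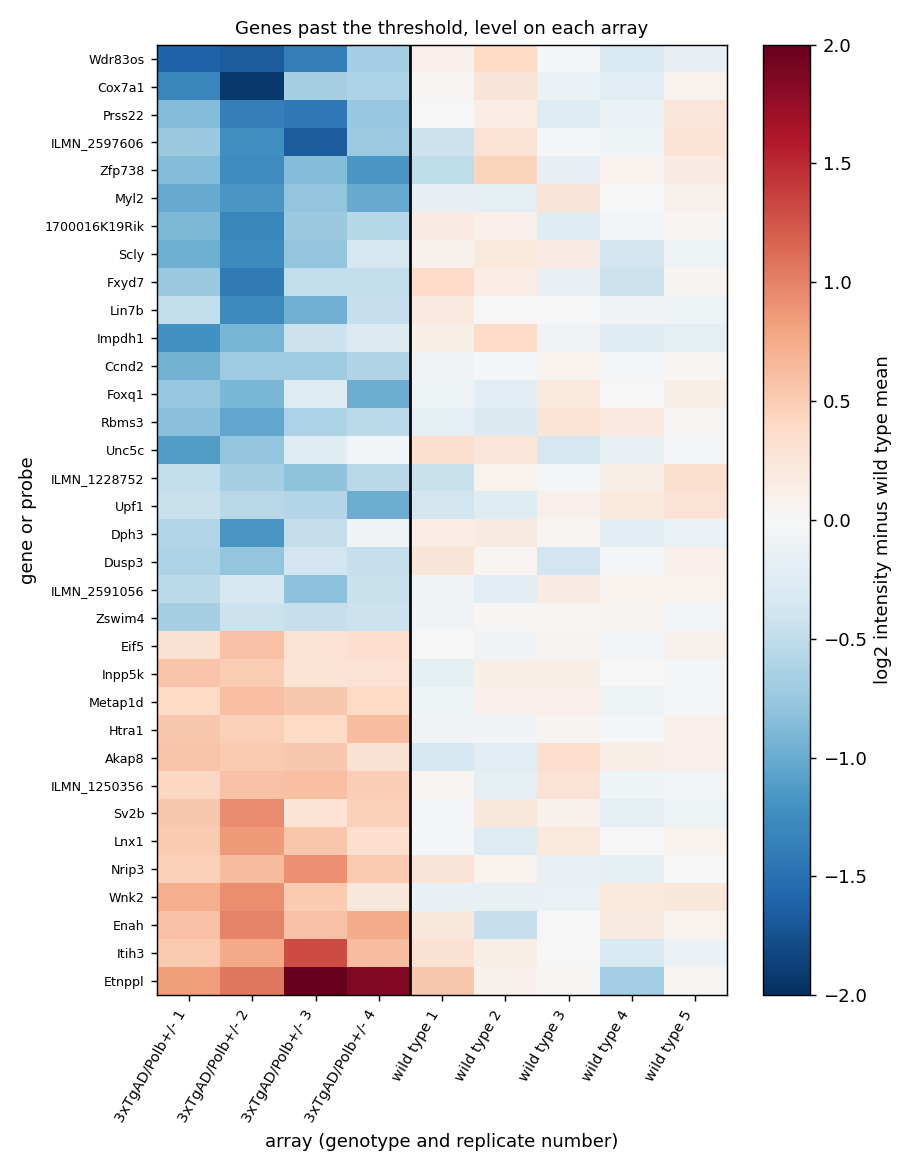
Log2 intensity minus the wild type mean for the 34 genes and probes past the threshold, with 3xTgAD/Polb+/- arrays left of the line and wild type arrays right of it. Blue is lower, red is higher, and colours end at 2 log2 units in both directions. The 21 lower rows are blue on nearly all 3xTgAD/Polb+/- arrays, and Unc5c and Dph3 are palest on 3xTgAD/Polb+/- replicate 4.

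Ccnd2, which encodes cyclin D2, a partner of the kinases that drive cells out of rest, had the smallest p. Its levels were 8.77, 9.01, 9.0 and 9.11 log2 units on the 3xTgAD/Polb+/- arrays, against 9.65, 9.69, 9.78, 9.70 and 9.76 on the wild type arrays. The groups lay apart by more than either varied, a difference of -0.75 ± 0.10 (SE, adjusted p = 0.0032 in limma). The difference was -0.86 within "20- month", -0.61 within "20 month" and -0.85 without wild type replicates 1 and 2. On the same scale Ccnd2 differed from wild type by -0.27 in 3xTgAD and by -0.39 in Polb+/- mice, and neither passed.

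Genes of neurons and synapses were on both sides. Lin7b encodes a scaffold protein that holds receptors and channels at synapses and cell borders. Its levels were 11.50, 10.72, 11.03 and 11.53 log2 units on 3xTgAD/Polb+/- arrays, against 12.18, 11.99, 11.97, 11.92 and 11.88 on wild type arrays. All 4 lay below all 5, a difference of -0.80 ± 0.15 (SE, adjusted p = 0.034 in limma), and its 3 other probes gave -0.43 to -0.80. It was -0.82 within "20- month", -0.81 within "20 month" and -0.72 without wild type replicates 1 and 2. Sv2b, a glycoprotein of synaptic vesicles, had 12.87, 13.27, 12.62 and 12.80 on 3xTgAD/Polb+/- arrays, against 12.29, 12.55, 12.41, 12.15 and 12.23 on wild type arrays. The groups did not overlap, and the difference was 0.57 ± 0.12, with 0.81 within "20- month", 0.29 within "20 month" and 0.67 without wild type replicates 1 and 2. Unc5c, a receptor for the guidance protein netrin, differed by -0.61 ± 0.12 with overlap between the groups. Fxyd7, a regulator of the sodium pump in brain, differed by -0.82 ± 0.17. Nrip3 had 11.92, 12.07, 12.36 and 11.96 on 3xTgAD/Polb+/- arrays, against 11.71, 11.51, 11.30, 11.26 and 11.46 on wild type arrays, a difference of 0.61 ± 0.09, with 0.66 and 0.56 within the spellings and 0.63 without wild type replicates 1 and 2. Enah, an actin regulator of growth cones, differed by 0.74 ± 0.13 and was detected on 4 of 4 3xTgAD/Polb+/- and 4 of 5 wild type arrays.

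Some further genes past the threshold are known from glia or encode secreted proteins. Htra1 encodes a secreted serine protease. It had 11.85, 11.78, 11.70 and 11.93 log2 units on 3xTgAD/Polb+/- arrays, against 11.24, 11.23, 11.37, 11.29 and 11.41 on wild type arrays. The groups lay apart with a small spread in each, a difference of 0.51 ± 0.09 (SE, adjusted p = 0.019 in limma), and its second probe gave 0.52. It was 0.46 within "20- month", 0.58 within "20 month" and 0.43 without wild type replicates 1 and 2. Etnppl encodes a phospho-lyase that breaks down ethanolamine phosphate, and in brain it is a gene of astrocytes. Its levels were 8.19, 8.40, 9.76 and 9.21 on 3xTgAD/Polb+/- arrays, against 7.89, 7.43, 7.37, 6.66 and 7.38 on wild type arrays. 3xTgAD/Polb+/- replicates 3 and 4 were the highest, and the difference of 1.51 ± 0.31 was the largest rise of the 34, with 1.33 at its second probe. It was 1.15 within "20- month", 1.82 within "20 month" and 1.61 without wild type replicates 1 and 2. Itih3, a heavy chain that binds hyaluronan, had 8.27 to 9.04 on 3xTgAD/Polb+/- arrays and 7.44 to 8.04 on wild type arrays, a difference of 0.80 ± 0.17, with 0.79 and 0.74 within the spellings and 1.01 without wild type replicates 1 and 2. Foxq1, a forkhead transcription factor, had 7.39 to 8.11 on 3xTgAD/Polb+/- arrays and 8.17 to 8.59 on wild type arrays, a difference of -0.74 ± 0.15.

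Metabolic genes were on both sides. Cox7a1, a subunit of cytochrome c oxidase best known from muscle, had 6.65, 6.04, 7.30 and 7.35 log2 units on 3xTgAD/Polb+/- arrays, against 7.99, 8.23, 7.83, 7.76 and 8.03 on wild type arrays. 3xTgAD/Polb+/- replicates 1 and 2 were the lowest, and the difference was -1.17 ± 0.24 (SE, adjusted p = 0.049 in limma). It was -1.52 within "20- month", -0.79 within "20 month" and -1.28 without wild type replicates 1 and 2. Scly, the lyase that frees selenium from selenocysteine, differed by -0.88 ± 0.14, with 3xTgAD/Polb+/- replicate 4 at 7.06 just above the lowest wild type array at 7.03. Impdh1, which makes guanine nucleotides, had 7.35 to 8.29 on 3xTgAD/Polb+/- arrays and 8.31 to 8.95 on wild type arrays, a difference of -0.76 ± 0.14. Metap1d, a methionine aminopeptidase of mitochondria, rose by 0.48 ± 0.09, and Inpp5k, a phosphoinositide phosphatase, by 0.42 ± 0.09.

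The remaining genes past the threshold were of mixed function. Prss22, a serine protease, had 5.98, 5.48, 5.42 and 6.09 log2 units on 3xTgAD/Polb+/- arrays, against 6.85, 7.0, 6.59, 6.72 and 7.10 on wild type arrays. It was a gene of low level with no overlap, at -1.11 ± 0.19 (SE, adjusted p = 0.019 in limma), with -1.07 and -1.17 within the spellings and -1.05 without wild type replicates 1 and 2. Wdr83os, which in human cells helps membrane proteins fold, had the largest change among those lower, -1.39 ± 0.26, with 7.79 to 8.77 on 3xTgAD/Polb+/- arrays and 9.15 to 9.85 on wild type arrays. It was -1.48 and -1.28 within the spellings and -1.45 without wild type replicates 1 and 2. Upf1, the helicase of nonsense-mediated decay, differed by -0.61 ± 0.12, and its other 2 probes by -0.67 and -0.44. 1700016K19Rik differed by -0.90 ± 0.15, the phosphatase gene Dusp3 by -0.59 ± 0.12 and Zswim4 by -0.50 ± 0.10. The kinase gene Wnk2 rose by 0.64 ± 0.11, the anchoring protein gene Akap8 by 0.52 ± 0.10 and the ubiquitin ligase gene Lnx1 by 0.59 ± 0.12. Eif5, a translation initiation factor, rose by 0.39 ± 0.08 at its brightest probe, but its other 2 probes gave 0.35 and -0.43.

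Probes without a gene symbol made up 4 of the 34. ILMN_2597606 differed by -1.08 ± 0.20 and ILMN_1228752 by -0.61 ± 0.12, and ILMN_1250356 rose by 0.53 ± 0.11. The 6 with the largest p among those lower were named after their values were seen. They were ILMN_2591056, at -0.51, the RNA-binding protein gene Rbms3, at -0.73, Zfp738, Myl2, Dph3 and Fxyd7. Zfp738 and Myl2 were not detected on any 3xTgAD/Polb+/- array and were detected on all 5 wild type arrays, so that they were at least 1.58-fold and at least 1.38-fold lower. That bound sets the wild type mean against the lowest detected signal of the 3xTgAD/Polb+/- arrays. Dph3, a gene of diphthamide synthesis, was called from a probe at -0.60, while its 2 other probes gave 0.42 and 0.38.

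**Figure D3:**
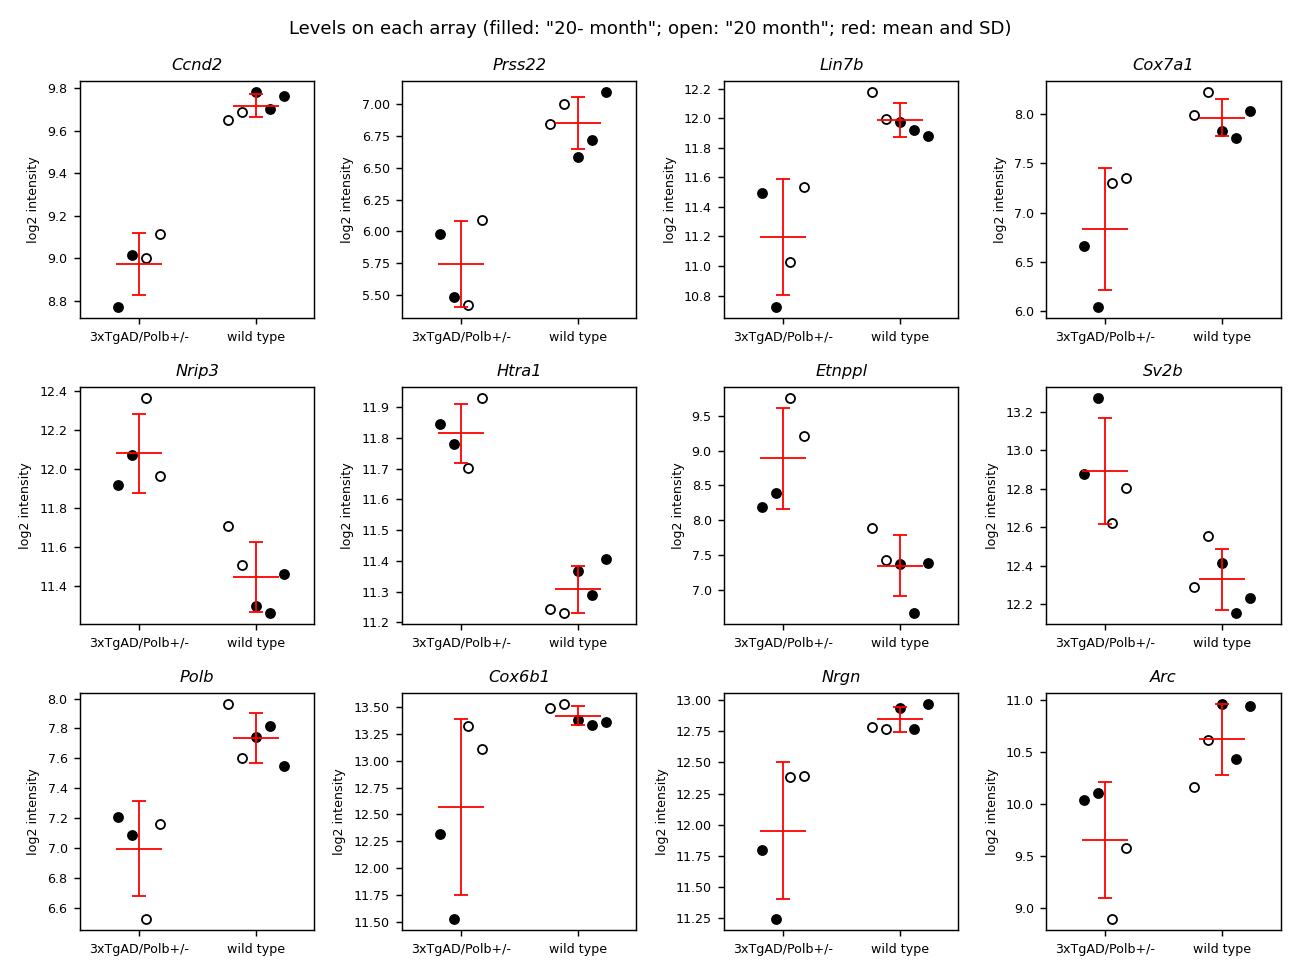
Log2 intensity of 12 genes on each array, 3xTgAD/Polb+/- left and wild type right, with filled points for "20- month", open points for "20 month", and the mean and SD in red. Ccnd2 and Htra1 lie apart in both spellings, and the lowest Cox6b1 and Nrgn points are filled, 3xTgAD/Polb+/- replicates 1 and 2.

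The genes of the alleles gave the check of the labels. Polb had 7.21, 7.09, 6.53 and 7.16 log2 units on 3xTgAD/Polb+/- arrays, against 7.97, 7.60, 7.74, 7.82 and 7.55 on wild type arrays. All 4 lay below all 5, and the difference of -0.75 ± 0.20 (SE) missed the threshold at an adjusted p of 0.079 in limma. It was -0.55 within "20- month" and -0.94 within "20 month". App, the mouse gene of the amyloid precursor, differed by 0.22 ± 0.10 with overlap, adjusted p = 0.23. Mapt, the mouse tau gene, differed by -0.12 ± 0.11 at its brightest probe and by 0.68 at another. Whether a probe reads the human transgenes is not given, so App and Mapt do not test for them. Thy1 differed by 0.20 ± 0.15, with 0.44 within "20- month" and -0.09 within "20 month". Of the 50 genes nearest to Polb, 25 were tested and 0 passed, where 0.307% of all genes did. At an unadjusted p under 0.05 in limma, 1 of the 25 was lower and 3 were higher, where 10.3% and 9.76% of all genes were.

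Genes listed for the respiratory chain lay mostly below their wild type values, none of them past the threshold, and far below on 2 arrays only. Its complexes I to IV pass electrons from food to oxygen and complex V makes ATP. Of 70 listed genes tested, 62 lay lower in 3xTgAD/Polb+/- cortex, with a median log2 difference of -0.51, where all genes had 0.02. Cox7a1, which passed the threshold, was not on the list. At an unadjusted p under 0.05, 44 of the 70 were lower and 0 higher, where 10.3% of all genes were lower, and 0 passed the adjusted threshold. In 6 they lay lower without overlap, where 1.22% of all genes did. The mean level of the 70 genes was 10.93, 10.47, 11.61 and 11.43 log2 units on 3xTgAD/Polb+/- replicates 1 to 4, against 11.63, 11.62, 11.51, 11.50 and 11.44 on the wild type arrays. Replicates 1 and 2 of 3xTgAD/Polb+/- lay below every wild type array, replicate 3 lay inside the wild type range and replicate 4 just below its lowest array. The lowest 3xTgAD array had 10.97. Within "20- month" the median was -0.90, with 47 of 70 past the threshold as lower, where 8.55% of all genes were. Within "20 month" the median was -0.12 and 0 passed. Without both 3xTgAD/Polb+/- replicates 1 and 2 it was -0.06, without replicate 2 alone it was -0.25, and without wild type replicates 1 and 2 it was -0.55.

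Each complex took part in this, with complexes II and III least. The median was -0.55 over 32 genes of complex I, -0.20 over 12 of complexes II and III, -0.61 over 11 of complex IV and -0.51 over 15 of complex V. Cox6b1, a subunit at the surface of complex IV, had 12.32, 11.52, 13.32 and 13.11 log2 units on 3xTgAD/Polb+/- arrays, against 13.49, 13.53, 13.38, 13.33 and 13.36 on wild type arrays. It lay lower without overlap, by far more in replicates 1 and 2, at -0.89 ± 0.22 (SE, adjusted p = 0.070 in limma). Ndufa1, a membrane arm subunit of complex I, differed by -1.04 ± 0.27 (adjusted p = 0.079), with -1.66 within "20- month" and -0.36 within "20 month". Ndufc1 and Ndufa13 of the same complex differed by -0.83 and -0.69, Uqcr11 and Uqcr10 of complex III by -0.97 and -0.68, and Cox5a and Cox5b of complex IV by -0.55 and -0.61. Atpif1, the inhibitor of ATP synthase, differed by -0.62 and Atp5g1, a subunit of its ring, by -0.75. None of these passed.

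Promoters are shown because genes of the chain are known targets of NRF-1, a transcription factor. The NRF-1 motif was searched on both strands in the 250 bases before the start of each gene, from RefSeq, build GRCm38.p6. It was found in 10 of 61 respiratory genes with a promoter in the table (16.4%), in 8.8% of the 8280 tested genes with one and in 4.23% of all 27025. Of the 10 genes, 9 had a negative log2 difference, as did 62 of all 70 respiratory genes. The 9 ran from -0.91 in Ndufa5 to -0.16 in Atp5c1, and Sdhd had 0.26. The 3 with the smallest p are Atpif1 (chr4:132535415-132535664, minus strand), Ndufb4 (chr16:37654369-37654618, minus strand) and Ndufs6 (chr13:73328483-73328732, minus strand). Cox6b1 (chr7:30626115-30626364, minus strand) has no match and is shown for contrast, and capitals mark the motif.
Atpif1: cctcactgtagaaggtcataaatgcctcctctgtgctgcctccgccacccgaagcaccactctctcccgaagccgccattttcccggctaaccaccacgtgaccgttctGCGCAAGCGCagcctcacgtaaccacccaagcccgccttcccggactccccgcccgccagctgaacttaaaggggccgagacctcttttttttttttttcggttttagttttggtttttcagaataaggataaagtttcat
Ndufb4: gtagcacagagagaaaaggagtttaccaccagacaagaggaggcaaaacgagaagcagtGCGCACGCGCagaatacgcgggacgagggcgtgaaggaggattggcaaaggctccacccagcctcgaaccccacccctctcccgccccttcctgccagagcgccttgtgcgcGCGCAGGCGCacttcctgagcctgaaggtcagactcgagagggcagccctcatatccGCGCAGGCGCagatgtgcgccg
Ndufs6: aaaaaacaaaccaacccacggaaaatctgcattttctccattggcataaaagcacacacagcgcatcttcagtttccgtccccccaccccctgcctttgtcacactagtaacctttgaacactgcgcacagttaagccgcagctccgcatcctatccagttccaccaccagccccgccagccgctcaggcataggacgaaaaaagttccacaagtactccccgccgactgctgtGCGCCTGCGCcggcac
Cox6b1: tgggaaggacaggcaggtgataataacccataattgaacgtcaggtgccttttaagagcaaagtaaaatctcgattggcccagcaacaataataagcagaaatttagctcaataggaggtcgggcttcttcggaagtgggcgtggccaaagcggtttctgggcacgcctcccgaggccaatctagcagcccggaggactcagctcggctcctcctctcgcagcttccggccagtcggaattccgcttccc
Ndufb4 holds 3 copies, and it was detected on 2 of 4 3xTgAD/Polb+/- arrays. Atpif1 and Ndufs6 hold 1 each.

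Ribosomal protein genes followed the same arrays. Cytosolic ribosomal proteins, which build the translation machinery, had a median log2 difference of -0.47 over 52 genes, with 44 lower, 28 of them at an unadjusted p under 0.05, where 10.3% of all genes were. Of the 8 higher, 1 had such a p, and 0 passed the threshold. Their mean was 11.66, 11.19, 12.26 and 11.97 log2 units on 3xTgAD/Polb+/- arrays, against 12.12, 12.19, 12.09, 12.08 and 12.11 on wild type arrays. Replicates 1 and 2 were low again, and replicate 3 lay above every wild type array. The lowest 3xTgAD array had 11.61. The median was -0.75 within "20- month", -0.06 within "20 month" and -0.01 without both 3xTgAD/Polb+/- replicates 1 and 2. Rpl30 differed by -0.75, Rpl27 by -0.79 and Rps26 by -0.92 (adjusted p = 0.089 to 0.108 in limma). Mitochondrial ribosomal proteins, which translate the genes inside mitochondria, had a median of -0.25 over 66 genes, with 55 lower, 30 of them at an unadjusted p under 0.05, and 0 past the threshold. It was -0.44 within "20- month" and -0.07 within "20 month". Mrpl36 had 10.53, 10.02, 10.73 and 10.81 on 3xTgAD/Polb+/- arrays, against 11.07, 11.15, 10.90, 10.85 and 10.84 on wild type arrays. It lay lower in all 4, at -0.46 ± 0.11 (adjusted p = 0.063). Mrps21 differed by -1.0 and Mrpl14 by -0.85. The ETS motif CCGGAAGT, searched in the same way, was in 15.9% of cytosolic ribosomal, 16.9% of mitochondrial ribosomal and 4.92% of respiratory promoters, and in 6.26% of those of all tested genes. The NRF-1 motif was in 2.27% of cytosolic and 10.2% of mitochondrial ribosomal promoters.

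Most genes of both groups are short, and short genes as a whole lay a little lower. Among 10213 genes with a known span, the shortest 2043 had a median log2 difference of -0.07 and the longest 2043 had 0.05. Within "20- month" these were -0.13 and 0.08. The shortest 2043 genes held 36 of the 70 respiratory and 48 of the 52 cytosolic ribosomal genes. The part of gene span in the difference was not tested.

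**Figure D4:**
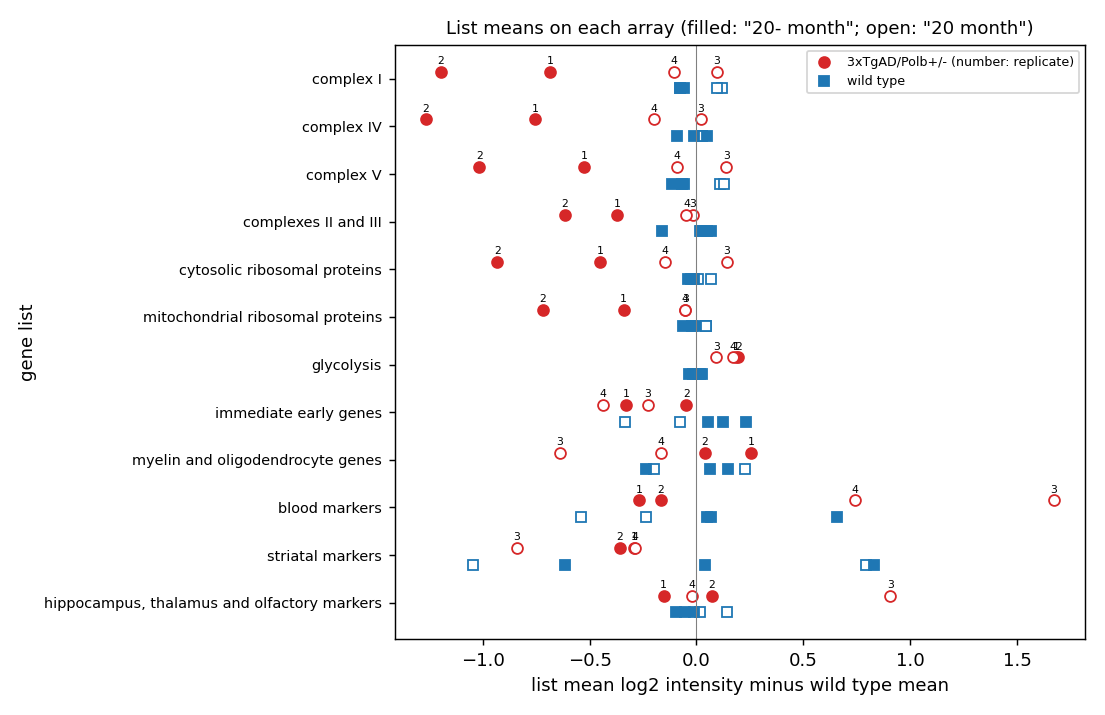
Mean log2 intensity of 12 gene lists on each array minus the wild type mean, with 3xTgAD/Polb+/- as circles above wild type squares, filled for "20- month" and open for "20 month". The respiratory and ribosomal lists are lowest on 3xTgAD/Polb+/- replicates 2 and 1, and the lists of blood and of hippocampus, thalamus and olfactory bulb are highest on replicate 3.

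Genes of glycolysis, which makes ATP without oxygen, lay mostly above their wild type values. Of 16 genes tested 15 lay higher, with a median log2 difference of 0.13, which became -0.05 under median scaling, where the median of all genes was -0.05. The list mean was 11.82, 11.83, 11.73 and 11.81 log2 units on 3xTgAD/Polb+/- arrays, against 11.62, 11.64, 11.60, 11.66 and 11.65 on wild type arrays, without overlap. The median was 0.21 within "20- month" and 0.18 within "20 month". At an unadjusted p under 0.05, 5 of 16 were higher, where 9.76% of all genes were, and 0 passed the threshold. Pgam1, phosphoglycerate mutase, differed by 0.36 ± 0.10 (SE, adjusted p = 0.086 in limma). Pfkm, the phosphofructokinase of muscle and brain, differed by 0.18 and Tpi1, triose phosphate isomerase, by 0.20, and both were negative under median scaling, at -0.04.

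Synaptic and interneuron lists had medians from 0.03 to 0.15. The median log2 difference was 0.03 over 21 genes of the postsynaptic density, 0.15 over 13 glutamate receptors, 0.04 over 25 genes of synaptic vesicles and 0.04 over 15 genes of GABA interneurons. Sv2b was the only member of these lists past the threshold. Nrgn, neurogranin, which binds calmodulin in dendritic spines, had 11.80, 11.24, 12.38 and 12.39 log2 units on 3xTgAD/Polb+/- arrays, against 12.78, 12.77, 12.94, 12.77 and 12.97 on wild type arrays. All 4 lay below all 5, with replicates 1 and 2 lowest, at -0.91 ± 0.20 (SE, adjusted p = 0.055 in limma). It was -1.38 within "20- month", -0.39 within "20 month" and -0.45 without both 3xTgAD/Polb+/- replicates 1 and 2. The vesicle fusion regulator Cplx2 differed by -0.75 ± 0.18 (adjusted p = 0.063), while the calcium sensor Syt1 and Napb, a fusion factor, differed by 0.36 and 0.23.

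Of 15 genes of GABA interneurons 6 lay lower and 9 higher, and the 4 with the smallest p lay lower. Sst, somatostatin, had 11.74, 11.31, 12.12 and 12.25 log2 units on 3xTgAD/Polb+/- arrays, against 12.43, 12.58, 12.44, 12.62 and 12.67 on wild type arrays. The groups did not overlap, and the difference was -0.69 ± 0.18 (SE, adjusted p = 0.075 in limma). It was -1.05 within "20- month", -0.32 within "20 month" and -0.25 without both 3xTgAD/Polb+/- replicates 1 and 2. Npy differed by -0.77, Pvalb, the calcium buffer of fast-spiking cells, by -0.63 and Cck by -0.46, and all 3 overlapped. Sst is a classic target of CREB, a factor that neuronal activity switches on. Its promoter (chr16:23890845-23891094, minus strand, RefSeq, GRCm38.p6) is shown because it holds the CREB site TGACGTCA, in capitals, in the 250 bases before its start, as do 2.93% of the tested genes.
Sst: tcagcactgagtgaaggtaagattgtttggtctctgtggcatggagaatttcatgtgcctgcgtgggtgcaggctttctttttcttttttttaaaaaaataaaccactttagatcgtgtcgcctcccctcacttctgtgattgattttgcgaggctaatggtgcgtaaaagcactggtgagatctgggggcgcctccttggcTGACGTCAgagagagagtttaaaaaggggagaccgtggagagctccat

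Immediate early genes, which neurons switch on within minutes of activity, had a median log2 difference of -0.24 over 19 genes, with 14 lower and 0 past the threshold. Arc, whose protein tunes synaptic receptors, had 10.04, 10.11, 8.89 and 9.58 log2 units on 3xTgAD/Polb+/- arrays, against 10.16, 10.62, 10.97, 10.44 and 10.94 on wild type arrays. All 4 lay below all 5, with replicate 3 lowest, at -0.93 ± 0.23 (SE, adjusted p = 0.063 in limma). The transcription factor genes Nr4a2, Junb and Npas4 differed by -0.56, -0.42 and -0.63 with overlap. The list mean was 8.60, 8.88, 8.71 and 8.5 on 3xTgAD/Polb+/- arrays, against 8.60, 8.86, 8.99, 9.05 and 9.17 on wild type arrays, where replicates 1 and 2 were the lower ones. The CREB site lay before 1 of 15 of these genes with a promoter in the table.

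Of the glial lists, those of myelin, of plaque-associated microglia and of microglia took opposite signs in the 2 spellings. Myelin and oligodendrocyte genes had a median log2 difference of -0.04 over 23 genes, with 0.17 within "20- month" and -0.45 within "20 month". Their mean was 10.55, 10.33, 9.65 and 10.12 log2 units on 3xTgAD/Polb+/- arrays, against 10.09, 10.52, 10.05, 10.35 and 10.44 on wild type arrays, and replicate 3 was the low one. Opalin, a myelin membrane protein, differed by -0.89 and the chaperone Cryab by -0.58. Genes that microglia express at plaques had a median of -0.07 over 21 genes, with 0.31 within "20- month" and -0.39 within "20 month". Wild type replicate 2 had the highest mean of that list, 9.06, where the 3xTgAD/Polb+/- arrays had 8.25 to 8.48. Trem2, the lipid receptor of these cells, differed by -0.41 and Cd63 by -0.43. Homeostatic microglia genes had a median of 0.06 over 23 genes, with 0.20 within "20- month" and -0.27 within "20 month". Sall1, a factor of microglial identity, and Mertk, a receptor for dying cells, differed by 0.39 and 0.41 without overlap (adjusted p = 0.070 and 0.079 in limma), and Aif1 by -0.64. Interferon and antigen presentation genes had a median of -0.21 over 26 genes, with -0.04 within "20- month" and -0.42 within "20 month", and Isg15, Cd74 and H2-Eb1 differed by -0.79, -0.61 and -0.59. No member of these 4 lists passed.

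Astrocyte and vessel genes showed single values only. Homeostatic astrocyte genes had a median log2 difference of 0.02 and reactive ones of 0.14, over 18 genes each, and 0 passed. Mt3, a zinc-binding protein of brain, had 9.67, 9.35, 11.64 and 11.15 log2 units on 3xTgAD/Polb+/- arrays, against 11.30, 12.12, 11.60, 11.46 and 11.59 on wild type arrays. Only replicates 1 and 2 lay far below, and the difference was -1.23 ± 0.36 (SE, adjusted p = 0.090 in limma). The water channel Aqp4 differed by -0.44, the filament gene Vim by 0.65 and Cd14 by 0.54. Lcn2, an iron-carrier binding protein of acute inflammation, had 5.61, 6.46, 10.26 and 9.57 on 3xTgAD/Polb+/- arrays, against 6.66, 5.72, 5.37, 4.79 and 6.47 on wild type arrays. Replicates 3 and 4 of 3xTgAD/Polb+/- alone were high, and it was detected on 4 of 5 wild type arrays. The difference was 1.97 ± 0.64 (adjusted p = 0.111), with 3.72 within "20 month". Blood markers had a mean of 7.35, 7.45, 9.29 and 8.36 on 3xTgAD/Polb+/- arrays, against 7.08, 7.38, 7.67, 7.69 and 8.28 on wild type arrays, over 8 genes. S100a9, a neutrophil protein, differed by 1.44 and Hba-a1, a globin, by -1.03. The part of blood in the values of Lcn2 was not tested. In vessels, Pltp, a lipid transfer protein, had 9.15, 8.86, 8.45 and 8.04 on 3xTgAD/Polb+/- arrays, against 9.39, 9.48, 9.73, 9.35 and 9.54 on wild type arrays, lower without overlap (-0.86, adjusted p = 0.075). The glucose transporter gene Slc2a1 differed by 0.46.

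Genes of DNA repair were close to their wild type levels as lists. The median log2 difference was 0.01 over 21 genes of base excision and strand break repair, Polb included, and 0.08 over 36 other repair and polymerase genes, and 0 of these 57 passed. Prkdc, the kinase that joins broken ends, differed by 0.40 ± 0.11 (SE, adjusted p = 0.075 in limma), Pold4, a subunit of polymerase delta, by -0.50 and Rpa3, of the single-strand binding complex, by -0.49. Targets of p53, the factor that answers DNA damage, had a median of 0.11 over 22 genes, and 3 lay higher without overlap, where 1.49% of all genes did. The median was -0.05 within "20- month" and 0.12 within "20 month". Sesn1, a stress gene that restrains growth signalling, had 11.11, 11.30, 11.20 and 11.26 log2 units on 3xTgAD/Polb+/- arrays, against 10.79, 10.61, 10.94, 10.93 and 10.84 on wild type arrays. It lay apart in both spellings, at 0.40 ± 0.09 (adjusted p = 0.059). Ei24 and the death receptor gene Tnfrsf10b, the other 2, differed by 0.24 and 0.61. Among 20 cyclins and their regulators Ccnd2 alone passed, and Ccnd1 differed by -0.80 (adjusted p = 0.075), with -1.34 within "20- month" and -0.15 within "20 month".

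Lists of the disease itself and of protein quality had medians near that of all genes, with antioxidant enzymes lowest. Genes that process the amyloid precursor had a median log2 difference of 0.02 over 21 genes, and the receptor Lrp1 differed by 0.30. Tau and its kinases had -0.06 over 19 genes, with Csnk1d at -0.32, and Map2, a sister of tau in dendrites, differed by 0.38. Proteasome subunits had -0.10 over 30 genes, with -0.20 within "20- month" and 0.06 within "20 month". Their member Psmd12 differed by 0.31 without overlap. The unfolded protein response had 0.01 over 14 genes, with its sensor Eif2ak3 at 0.44. Antioxidant enzymes had -0.11 over 30 genes, 23 of them lower, with -0.28 within "20- month" and 0.01 within "20 month". At an unadjusted p under 0.05 in limma 8 of the 30 were lower and 1 higher, where 10.3% and 9.76% of all genes were. Prdx2 differed by -0.35 and Mt1 by -0.61. No member of these 5 lists passed. Striatal markers, which check the dissection, had a mean of 8.52 to 9.07 log2 units on 3xTgAD/Polb+/- arrays and 8.32 to 10.19 on wild type arrays. With that mean as a covariate 32 genes passed, 23 of them among the 34.

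The other lists held no gene past the threshold. The median log2 difference was 0.05 over 18 genes of cholesterol synthesis and uptake, with 0.25 within "20- month" and -0.24 within "20 month". It was 0.06 over 17 circadian clock genes, -0.03 over 19 heat shock proteins and chaperones, -0.05 over 20 cortical layer genes and -0.02 over 10 genes of oligodendrocyte precursors. Among markers of other cells and regions it was -0.12 over 13 meningeal and fibroblast genes, -0.35 over 14 striatal genes and 0.06 over 11 genes of hippocampus, thalamus and olfactory bulb. Over 8 blood genes it was 0.72, with -0.10 within "20- month", 1.46 within "20 month" and -0.13 without wild type replicates 1 and 2. It was within 0.01 of 0 over 22 endothelial and pericyte genes and 7 of choroid plexus and ependyma.

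**Figure D5:**
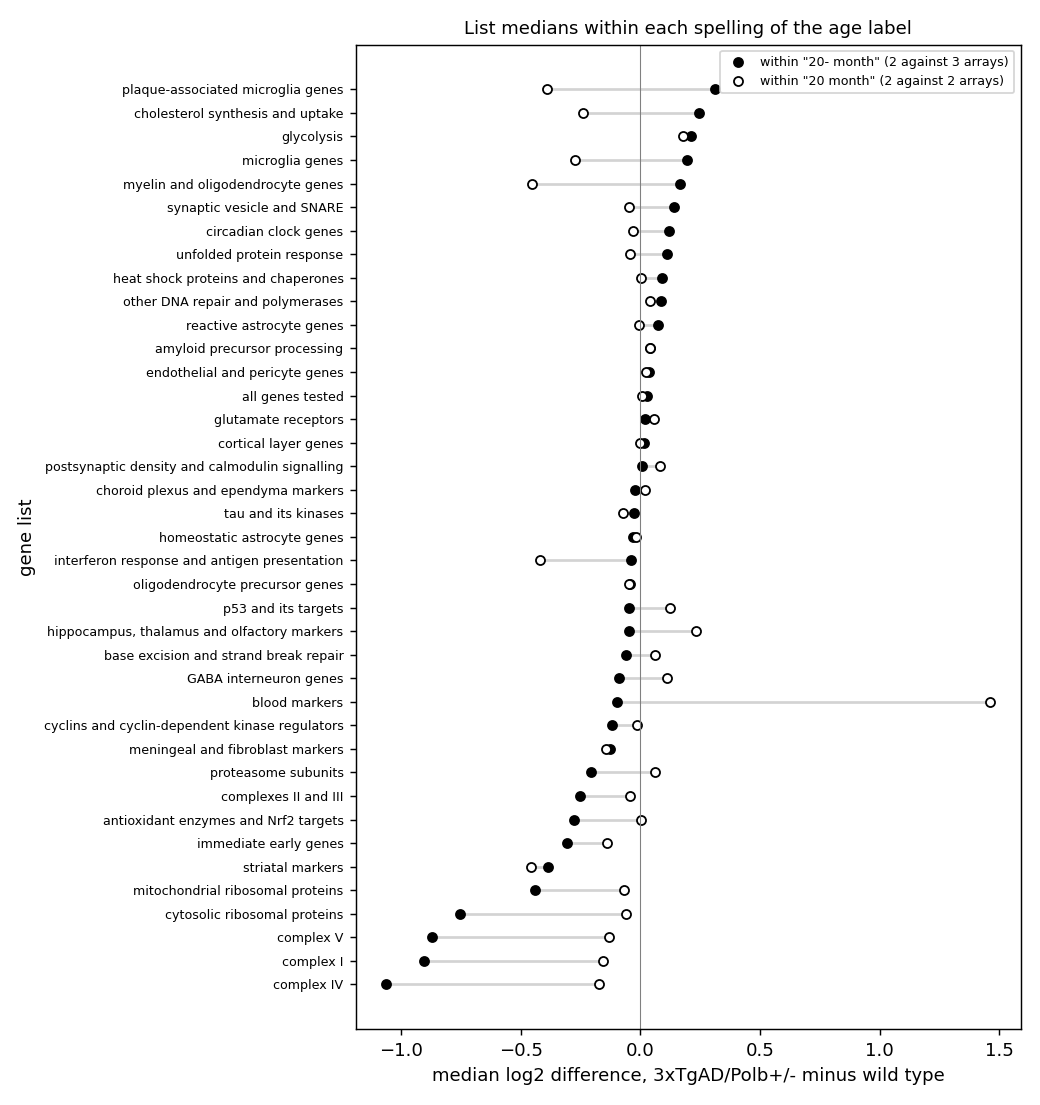
Median log2 difference of each gene list, 3xTgAD/Polb+/- minus wild type, within "20- month" arrays (filled, 2 against 3) and "20 month" arrays (open, 2 against 2). The respiratory and ribosomal lists are far below 0 in the first and near 0 in the second, and lists of plaque-associated microglia, cholesterol synthesis and myelin change sign.

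The difference of 3xTgAD/Polb+/- from wild type also varied between the spellings over all genes. The comparison held 2 against 3 arrays within "20- month" and 2 against 2 within "20 month". Counts past the threshold are thus not directly comparable. Within "20- month" arrays 947 genes were lower (8.55%) and 614 higher (5.55%) past the threshold. Of these 1561, 941 (60.3%) had the same sign within "20 month", where 53.8% of all genes did. At an unadjusted p under 0.05 within "20 month", 46 had the same sign and 47 the opposite one. Over all genes the 2 sets of log2 differences, which share no array, correlated at a Pearson r of 0.06 and a Spearman rho of 0.10, given as a description since genes are not independent. The test of the difference itself was passed by 33 genes (0.298%), and none of the 34 was among them. Its count was 0 with the replicate number as a further block, 4 with array weights and 1840 with median scaling.

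Some of these 33 turned on the wild type arrays and some on the 3xTgAD/Polb+/- arrays. The differences are the effect within "20- month" minus that within "20 month", and the genes were chosen after their values were seen. Gm3696, at 3.69, Tmem87a, at -2.72, H2-Bl, at 2.18, and Gm5796, at 2.01, are the 4 genes described above. The wild type arrays divided by spelling in others of the 33 too. Zfp101 had 6.40 and 6.38 log2 units on wild type replicates 1 and 2, against 7.62 to 8.12 on replicates 3 to 5. Cdsn had 7.90 and 7.53 on wild type replicates 1 and 2, against 5.91 to 6.28 on replicates 3 to 5. Pou6f1, a transcription factor gene, had 4.55, 4.50, 9.71 and 9.67 log2 units on 3xTgAD/Polb+/- arrays, against 4.54, 4.53, 11.02, 10.74 and 10.81 on wild type arrays, so that it was low on replicates 1 and 2 of both. It was detected on 2 of 4 3xTgAD/Polb+/- arrays and 3 of 5 wild type arrays. Lrg1, an acute phase protein, had 6.97, 6.71, 9.66 and 9.26 on 3xTgAD/Polb+/- arrays, against 7.31 to 7.72 on wild type arrays. As with Lcn2, 3xTgAD/Polb+/- replicates 3 and 4 were high. On the Polb+/- arrays Lrg1 ran from 7.57 to 9.50, highest on replicate 4 of that genotype. Gpr34, a microglial receptor, had 8.68, 8.71, 7.03 and 7.21 on 3xTgAD/Polb+/- arrays, against 7.55 to 8.23 on wild type arrays. Enpp6, a choline phosphodiesterase of young oligodendrocytes, had 8.55, 8.90, 7.18 and 7.07 on 3xTgAD/Polb+/- arrays, against 7.31 to 8.65 on wild type arrays. In both, replicates 3 and 4 were below the wild type range. Replicates 1 and 2 were above it, except that replicate 1 lay inside it in Enpp6. Polb+/- replicate 4 was low too, with 7.06 in Gpr34 and 7.32 in Enpp6. Mrps12, a mitochondrial ribosomal protein, had 10.34, 10.40, 11.61 and 11.52 on 3xTgAD/Polb+/- arrays, against 11.38 to 11.90 on wild type arrays.

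The single genotypes show where the double one stood, with the same wild type arrays in each difference. Of the 34 genes, 0 passed in 3xTgAD and 0 in Polb+/- against wild type, where 2 and 0 of all 11072 genes did. All 34 had the same sign in 3xTgAD as in 3xTgAD/Polb+/-. The 34 were picked by their difference from these same wild type arrays, so that the shared sign is no independent check. Between 3xTgAD/Polb+/- and 3xTgAD 0 genes passed, and between 3xTgAD/Polb+/- and Polb+/- 24 did. Nrip3 was higher in value by 0.61 in 3xTgAD/Polb+/-, 0.24 in 3xTgAD and 0.07 in Polb+/- mice, and Htra1 by 0.51, 0.27 and 0.17. Wdr83os differed by -1.39 in 3xTgAD/Polb+/-, -1.24 in 3xTgAD and -0.11 in Polb+/- mice, and Prss22 by -1.11, -0.02 and -0.61. The interaction, which asks whether the joint difference departs from the sum of both single ones, was passed by 0 of 11072 genes in limma, with 616 at an unadjusted p under 0.05. Of the 34, 7 had an unadjusted p under 0.05 for it, the lowest in ILMN_2597606 (-1.20) and Unc5c (-0.68).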

How the data were processed

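RNA of prefrontal cortex was measured on 19 Illumina bead arrays with 25697 probes. The deposited table holds one intensity per probe and array, made with GenomeStudio 1.9.0 per the submitters' processing notes. Beside each intensity the authors deposited a detection p-value. A second deposited table holds a score, which equalled the z score of log10 intensity within each array to 5e-10. No other normalization step is given in the sources used here.

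Intensities were background-corrected, quantile-normalized and put on the log2 scale with neqc (limma 3.58.1, R 4.3.3, offset 16). Probes with a detection p under 0.05 on at least 4 arrays were kept (14942), and the brightest probe stood for each gene (11072, of which 855 had no symbol). limma was fitted over all 19 arrays with genotype means and the age spelling as a block, two-sided, with Benjamini-Hochberg adjustment over all genes. The text names at most 15 genes past the threshold in each direction by p, up to 4 members of each list, the allele genes and genes said to be chosen after their values were seen. The members and all 38 lists (1006 genes, 778 tested) were chosen with earlier results of these data known. The fit was tested on simulated data with noise drawn independently for each gene and array. Deviations shared by many genes of an array were not simulated. Alternatives were background correction, scaling, filter, probe choice, blocks, array weights, the deposited scores and leaving out each array. The number of arrays limits the precision. An item withheld for evaluation is not reported here.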

Additional observations from a re-analysis of the deposited data

Results flagged for a closer look

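In 11 of 318 groups of values examined, a single array lay far from the rest of its group, where chance gives about 1 in 20. On 3xTgAD/Polb+/- arrays these were Zswim4 at 7.653 log2 units on replicate 1, Akap8 at 7.682 on replicate 4, Trem2 at 7.753 on replicate 2, H2-Eb1 at 6.592 on replicate 3 and the mean of striatal markers at 8.522 on replicate 3. On wild type arrays they were Napb at 12.88 and Tnfrsf10b at 6.138 on replicate 3, Pold4 at 8.534 and the mean of plaque-associated microglia genes at 9.062 on replicate 2, and the means of complexes II and III at 10.55 and of tau and its kinases at 10.27 on replicate 5.

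The log2 difference of 3xTgAD/Polb+/- from wild type itself differed between the spellings in these genes, as the value within "20- month" minus that within "20 month", past an adjusted p of 0.05 in limma. It was higher within "20- month" in Gm3696 (3.69), H2-Bl (2.18), Enpp6 (2.12), Gm5796 (2.01), Gpr34 (1.37) and Dbp (0.837). It was lower in Tmem87a (-2.72), Lrg1 (-2.58), Hspb8 (-2.11), Pebp1 (-1.81), Fosb (-1.65) and Mrps12 (-1.49). In Pou6f1 the fitted value was -11.5, but within each spelling 1 of the groups was not detected, so that this is no exact size.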

How the results depend on the processing

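The count of 34 genes between 3xTgAD/Polb+/- and wild type cortex was 2 with no spelling block, 1 from the 9 arrays of both genotypes alone, 1561 within "20- month" and 7 within "20 month". It was 93 by quantile normalization without background correction, 3 with median scaling (3 lower, 0 higher), 17 with no filter on detection, 80 with a trended robust prior, 954 with array quality weights and 15 with 3xTgAD replicates 2 and 5 averaged. Leaving out 1 array gave 1 to 960, and leaving out both 3xTgAD/Polb+/- replicates 1 and 2 gave 9. The deposited scores gave 47, a stricter detection filter 44 and every probe on its own 49, with 24, 31 and 32 among the 34. All 34 kept their direction in these settings, except that 31 of them were tested under the stricter filter, with their direction kept. The difference between spellings was passed by 33 genes, and by 90 without background correction, 1840 with median scaling, 554 from the deposited scores, 20 with no filter, 73 with the stricter filter, 52 with every probe on its own, 111 with the trended robust prior, 4 with array weights and 11 to 724 without 1 array. The interaction count of 0 was 151 within "20- month", and 1 within "20 month", with every probe on its own and without both 3xTgAD/Polb+/- replicates 1 and 2. The cause of these changes was not tested. Leaving out 2 arrays together, and every alternative for the difference between spellings and the interaction, was chosen after seeing the data.

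With the replicate number as a block beside the spelling, 0 genes passed for the genotype and 0 for the difference between spellings. The adjusted p of the 34 was then 0.0535 to 0.161, and Enpp6 was at -0.04307. Deviations of same-numbered 3xTgAD/Polb+/- and wild type arrays correlated at -0.345 to -0.162 over 4 pairs, all of different spelling. With the spelling removed they correlated at 0.129 to 0.212, and the other 6 pairs of different spelling at 0.0244 to 0.297. No label ties the numbers to a shared litter or batch, and whether they pair the arrays is not settled.

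Log2 differences turned sign as follows. Within "20 month" they were -0.09441 for Thy1, 0.1491 for Hba-a1, 0.04282 for Mt1, -0.5807 for Gm3696, 0.1266 for Tmem87a, -0.1615 for H2-Bl, -0.05462 for Gm5796, 5.156 for Pou6f1 (not detected on the wild type arrays there), 0.3097 for Pebp1, 0.5451 for Hspb8, -0.5882 for Gpr34, -1.156 for Enpp6, 0.4517 for Fosb and 0.1398 for Mrps12. Within "20- month" they were -0.658 for Lrg1 and 0.07979 for Dbp, which was 0.03093 without wild type replicates 1 and 2. With median scaling they were -0.05471 for Thy1, -0.03762 for Tpi1, -0.04464 for Pfkm and -0.06298 for Enpp6. Without both 3xTgAD/Polb+/- replicates 1 and 2 they were 0.01174 for Hba-a1, 2.792 for Pou6f1, 0.09308 for Hspb8, -0.5221 for Gpr34, -0.7463 for Enpp6 and 0.2101 for Fosb. Enpp6 was -0.046 with no spelling block, -0.001236 from 9 arrays, and -0.2721 to 0.2927 over the arrays left out in turn, negative in 5 cases. Gpr34 was -0.05544 to 0.3331 in the same way, negative without 3xTgAD/Polb+/- replicate 1 or 2.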
